A study of Mus musculus with 6 samples.

Results

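RNA levels of 10 ETS transcription factors were followed through a knockdown of the Polycomb ligases Ring1a and Ring1b. The genes were Erg, Fli1, Ets1, Ets2, Elk1, Elk3, Elf1, Gabpa, Etv1 and Etv6. They were taken by gene symbol from the deposited table, and all 10 were found among its 20325 genes. The cells were C3H10T1/2, a multipotent mesenchymal line derived from C3H mouse embryos, at passage 10 to 15. Parental cells were given either a scrambled small interfering RNA (3 control libraries) or small interfering RNAs against both Ring1a and Ring1b (3 knockdown libraries). The comparison asked how RNA levels change in these progenitors when both ligases are targeted. The sources used here do not give the sequences of these RNAs, their dose or the time after transfection. All libraries come from 1 line, and separate cultures are not stated, so the p-values measure the spread between these libraries alone, which may be technical.

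ETS proteins share a DNA-binding domain, a winged helix-turn-helix, that reads a core of GGAA within a longer site. The subfamilies differ in what controls them and in what they switch on. Erg and Fli1 act in endothelium, blood and developing cartilage, and Ets1 and Ets2 are phosphorylated by ERK and act with Runx factors on matrix, protease and growth genes. Elk1 and Elk3 bind with serum response factor at immediate early genes, Gabpa drives genes of mitochondria and basic metabolism, Etv1 and its relatives Etv4 and Etv5 (the PEA3 group) act downstream of FGF receptors, and Elf1 acts as an activator in blood cells and Etv6 as a repressor. Ring1a and Ring1b are the catalytic subunits of Polycomb repressive complex 1, which modifies histone H2A at developmental genes that are kept silent.

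The 250 bases before the annotated start (RefSeq, GRCm38.p6) are shown for Erg and Ets2, the members that passed the test, and for Etv1, the single member with a higher level in every knockdown library. Capitals mark the ETS core GGAA, or TTCC where it lies on the other strand. For Erg the start at chr16:95586594-95586843 (minus strand) is shown, 1 of 3 listed. Ets2 lies at chr16:95702157-95702406 (plus strand), and Etv1 at chr12:38779832-38780081 (plus strand), 1 of 2 listed.
Erg: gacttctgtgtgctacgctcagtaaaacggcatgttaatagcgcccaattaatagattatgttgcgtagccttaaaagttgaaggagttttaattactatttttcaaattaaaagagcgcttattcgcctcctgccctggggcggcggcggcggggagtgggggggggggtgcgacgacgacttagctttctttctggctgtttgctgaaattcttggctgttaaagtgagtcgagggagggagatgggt
Ets2: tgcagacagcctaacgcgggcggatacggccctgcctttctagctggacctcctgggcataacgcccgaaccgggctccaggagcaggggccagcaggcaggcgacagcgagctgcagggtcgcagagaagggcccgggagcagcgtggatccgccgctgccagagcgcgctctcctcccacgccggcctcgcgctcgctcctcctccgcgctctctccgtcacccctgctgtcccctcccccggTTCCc
Etv1: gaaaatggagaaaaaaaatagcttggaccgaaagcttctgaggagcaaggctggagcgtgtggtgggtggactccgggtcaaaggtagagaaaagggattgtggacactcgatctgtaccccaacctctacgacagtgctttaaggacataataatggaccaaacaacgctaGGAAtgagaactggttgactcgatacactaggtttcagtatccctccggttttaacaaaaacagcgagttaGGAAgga
The Ets2 window held 25 CG dinucleotides, the Erg window 14 and the Etv1 window 9, against a median of 6 over all 32851 such windows. The other windows of Erg held 2 and 3 and that of Etv1 held 1, so the count depends on the start shown. GGAA was found on either strand 0 times in the Erg window shown (4 and 2 times in its other windows), 1 time in that of Ets2 and 2 times in that of Etv1 (1 time in its other window). Of all windows, 93.4% held it, with a median of 3 matches. Of the 10 members, 8 had a promoter sequence. The longer ETS site CCGGAAG, which includes GGAA, was present on either strand in 6.91% of all windows and in the windows of 1 member, Gabpa. It is shown in capitals, read on the opposite strand, in a stretch at chr16:84835021-84835047 (plus strand).
Gabpa: agggtaagtgCTTCCGGgtccctcagc
These matches describe letters in the windows; no binding was measured.

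Each value below is a median-normalized estimated read count, as deposited, unless a fold or a log2 fold change is named. Deposited totals lay between 13100000 and 13700000 in 5 libraries and at 19500000 in knockdown replicate 2. From the value of 1 read, the depth before scaling was estimated at 51800000, 5400000 and 15100000 reads in control replicates 1, 2 and 3, and at 23200000, 4600000 and 18500000 in knockdown replicates 1, 2 and 3. Rnf2, which encodes Ring1b, stood at 815, 829 and 799 in control cells, against 129, 76.5 and 152 after knockdown, and Ring1, which encodes Ring1a, stood at 336, 386 and 374 and at 162, 268 and 186. The fall of Ring1 was thus partial and smaller than that of Rnf2, and these RNA values do not give the protein left. Knockdown replicate 2 stood apart: across genes, its log2 values correlated at 0.821 to 0.867 with those of the other libraries, while the other pairs reached at least 0.944. Results for the members are therefore given with and without it, and for each gene list the counts without it follow.

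Across the 10 members, Erg and Ets2 fell, and no member rose, at the threshold of a Benjamini-Hochberg adjusted p of 0.05 over all 12085 genes tested (limma, two-sided). All 10 members passed the filter on low values, a mean of at least 10. The counts were 2 lower and 0 higher, beside 1.78% of all tested genes called lower and 3.2% called higher. At an unadjusted p under 0.05, 4 members were lower and 1 was higher, where 20.5% of all tested genes reached that level in either direction. In 8 members all 3 knockdown values lay below all 3 control values, and in 1 they lay above, beside 23.7% and 20.5% of tested genes. The median log2 fold change was −1.01 over the members and 0.01 over all genes tested. Without knockdown replicate 2 these medians were −0.41 and −0.02. The members were chosen with earlier results of these data known, so the counts and medians describe that choice. With 3 libraries against 3 an exact permutation test cannot go below a p of 0.1, so calls of single genes come from limma. Those calls need all 3 controls: without any 1 of them limma called 0 genes of the whole table, though 1475 to 1529 had an unadjusted p under 0.05. Without knockdown replicate 1 it called 7 genes higher and 21 lower, and without knockdown replicate 3 it called 37 and 57. The loss of calls without 1 control covers each gene named below as changed.

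**Figure D1:**
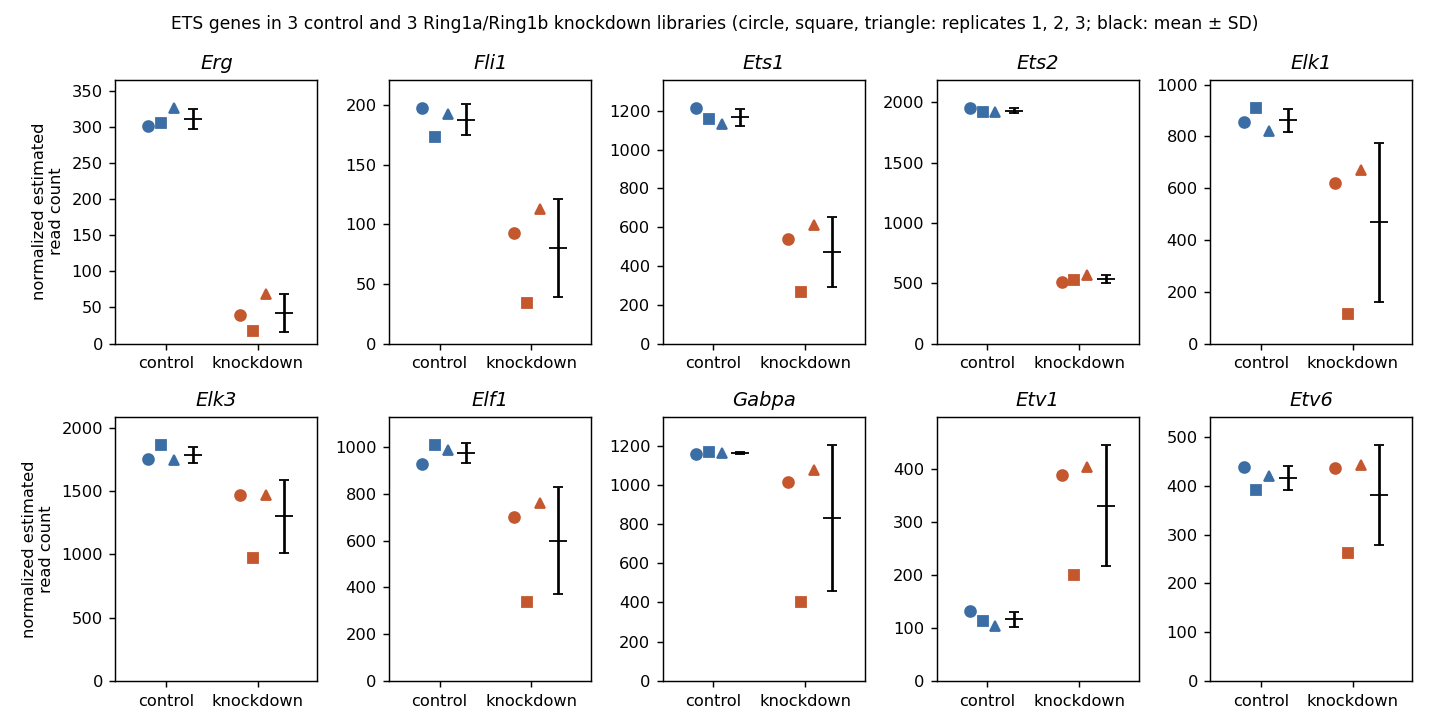
Normalized estimated read counts (vertical axis, starting at 0) of the 10 ETS genes in 3 control (blue) and 3 knockdown (orange) libraries, with circle, square and triangle for replicates 1, 2 and 3 and the mean ± SD in black. Ets2 lies between 511 and 571 in the knockdowns against 1918 to 1952 in the controls, while in 9 genes the square of knockdown replicate 2 is the lowest knockdown value.

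Erg showed the largest fold difference of the 10. It stood at 301, 306 and 326 in control replicates 1, 2 and 3 and at 40.1, 17.01 and 68.9 in knockdown replicates 1, 2 and 3. The groups did not overlap, and the knockdown libraries held 12.9, 5.47 and 22.2% of the control mean. Its mean went from 311 ± 13.3 to 42.03 ± 26.01 (SD, n = 3 per group), a 7.40-fold fall (log2 fold change −3.06, limma adjusted p = 0.0311, SE 0.49). The value of 17.01 in knockdown replicate 2 corresponds to 4 reads, with an exact Poisson 95% interval of 4.63 to 43.5 that covers counting error only. Without that library the fall was 5.70-fold (log2 fold change −2.54, limma adjusted p = 4.36e-06, SE 0.19). Leaving out 1 control ended the call of Erg in each case (limma adjusted p = 0.148 to 0.165), as did leaving out knockdown replicate 1 (0.114), while its log2 fold change stayed between −3.14 and −3.03. In bulk RNA, fewer cells with a transcript and less transcript per cell cannot be told apart. In the authors' deposited table of 323 differential genes, Erg was the single one of the 10 members, listed with a knockdown to control ratio of 0.136. Of the other ETS family genes, that table held Etv4 alone, at a ratio of 6.74. The name of that table carries the tag FC4, which may stand for a limit of 4-fold. Ets2 (3.60-fold), Etv1 (2.85-fold), Ets1 (2.47-fold) and Fli1 (2.35-fold) lie under such a limit, so their absence there says nothing of their p-values.

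Fli1, the closest paralog of Erg, was lower in every knockdown library but did not pass. Its values were 197, 173 and 192 in the controls and 92.7, 34.01 and 113 in the knockdowns. The lowest, in knockdown replicate 2, rests on 8 reads (exact Poisson 95% interval 14.7 to 67.02). The groups did not overlap, and the log2 fold change was −1.39 (95% interval −2.52 to −0.25, limma adjusted p = 0.173). Without knockdown replicate 2 it was −0.86 (limma adjusted p = 0.000155, SE 0.13), a 1.82-fold lower mean. That fit called 26.1% of all tested genes lower and 23.8% higher, so a call in it sets a gene less apart.

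Ets2 was the member whose knockdown libraries lay closest together. It stood at 1952, 1920 and 1918 in control cells, against 511, 527 and 571 after knockdown. All 3 knockdown libraries, replicate 2 included, held 26.5 to 29.6% of the control mean. The mean fell 3.60-fold, between 1930.1 ± 19.1 and 536 ± 30.7 (SD, n = 3; log2 fold change −1.85, limma adjusted p = 0.00551, SE 0.13), and it was 3.57-fold lower without knockdown replicate 2 (log2 fold change −1.84, limma adjusted p = 1.98e-09). Without 1 control the adjusted p was 0.0602 to 0.0852, above the threshold, with log2 fold changes of −1.85 to −1.84.

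Ets1 stood at 1215, 1157 and 1130 in control cells, against 538, 268 and 610 after knockdown. The groups did not overlap, with knockdown replicate 2 the lowest. The log2 fold change of −1.39 (95% interval −2.20 to −0.58) missed the threshold with all libraries (limma adjusted p = 0.0833), and the value without knockdown replicate 2 was −1.03 (limma adjusted p = 2.58e-07, SE 0.07), a 2.03-fold lower mean.

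Erg and Ets2 are direct neighbours on chromosome 16 among the genes of the table, and Fli1 and Ets1 are direct neighbours on chromosome 9 (gene order from RefSeq, GRCm38.p6). The genes around them were examined after the members' values were seen. Next to Ets2, Psmg1 stood at 307, 256 and 345 in control cells, against 272, 1003 and 274 after knockdown (log2 fold change 0.49, limma adjusted p = 0.582), and its log2 fold change was −0.14 without knockdown replicate 2 (limma adjusted p = 0.355). Brwd1, the next gene, did not pass with all libraries (log2 fold change −0.83, limma adjusted p = 0.185) and was at −0.52 without knockdown replicate 2 (limma adjusted p = 2.87e-05). On the far side of Erg, the potassium channel gene Kcnj15 was at 0.903 or less in every control and reached 7.99, 4.25 and 6.40 after knockdown, too low to be tested. Beyond Ets1, the cell adhesion gene Kirrel3 rose (log2 fold change 1.97, limma adjusted p = 0.0281, SE 0.31), while St3gal4, a sialyltransferase gene next to it, fell (log2 fold change −1.09, limma adjusted p = 0.0194, SE 0.15). Both were also called without knockdown replicate 2, at 1.93 and −1.002 (limma adjusted p = 0.000903 and 1.80e-07).

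Etv1 went the opposite way. It stood at 132, 113 and 103 in control cells, against 388, 200 and 403 in knockdown replicates 1, 2 and 3, with every knockdown above every control. The mean was 2.85-fold higher (log2 fold change 1.44, SE 0.31, 95% interval 0.67 to 2.22) but did not pass (limma adjusted p = 0.0663). Without knockdown replicate 2, the lowest of the 3, the mean was 3.42-fold higher (log2 fold change 1.77, limma adjusted p = 2.83e-07, SE 0.12). Both other genes of its group, Etv4 and Etv5, rose. Etv4 stood at 21.0, 32.6 and 20.8 in control cells, against 132, 221 and 140 after knockdown (log2 fold change of 2.67, limma adjusted p = 0.0127). Etv5 stood at 273, 281 and 248 and at 631, 616 and 766 (log2 fold change 1.32, limma adjusted p = 0.0138). All 3 genes of the PEA3 group were thus higher in each knockdown library.

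**Figure D2:**
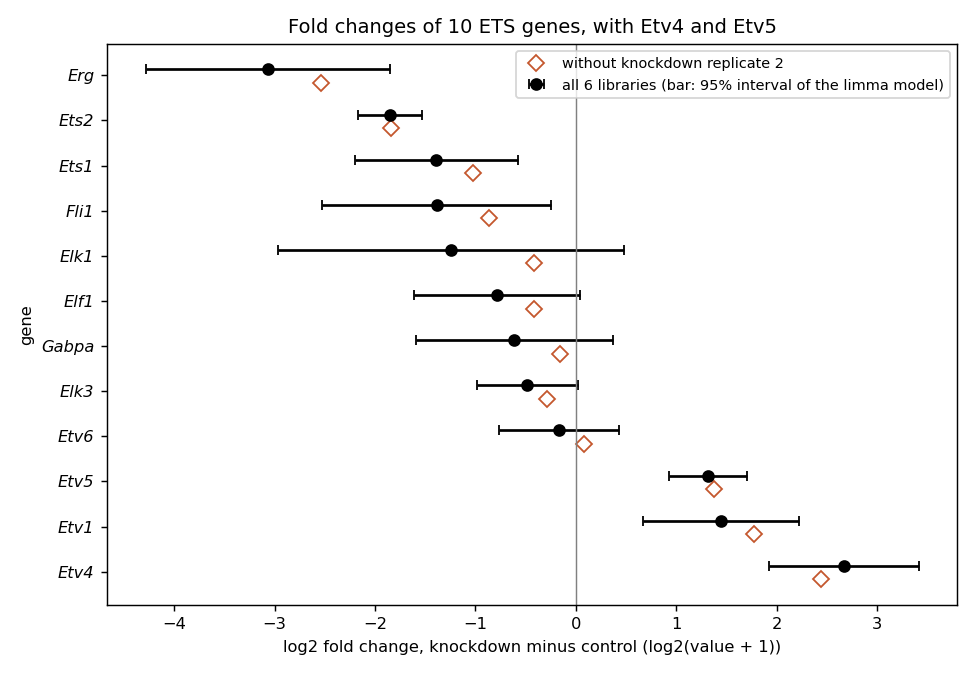
Log2 fold change, knockdown minus control (horizontal axis), of the 10 ETS genes and of Etv4 and Etv5, with all 6 libraries (black circles, bars: 95% interval of the limma model) and without knockdown replicate 2 (open diamonds). Erg at −3.06 and Ets2 at −1.85 lie at 1 end and Etv4 at 2.67 at the other, and the diamond of Ets2 lies under its circle.

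The ternary complex factors Elk1 and Elk3 did not pass. Elk1 stood at 855, 910 and 820 in control cells, against 619, 115 and 672 after knockdown. Its log2 fold change of −1.24 (95% interval −2.96 to 0.48, limma adjusted p = 0.366) moved to −0.42 without knockdown replicate 2 (limma adjusted p = 0.000325, SE 0.07). Elk3 stood at 1751, 1860 and 1743 and at 1465, 969 and 1469, with a log2 fold change of −0.48 (95% interval −0.99 to 0.02, limma adjusted p = 0.262) and of −0.28 without knockdown replicate 2 (limma adjusted p = 0.000883). In both genes knockdown replicates 1 and 3 lay near each other and below the controls.

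Elf1 and Gabpa also had groups that did not overlap and did not pass. Elf1 stood at 927, 1008 and 990 in control cells, against 703, 336 and 760 after knockdown (log2 fold change −0.79, 95% interval −1.61 to 0.04, limma adjusted p = 0.261). Gabpa stood at 1158, 1168 and 1161 and at 1014, 404 and 1074 (log2 fold change −0.61, 95% interval −1.59 to 0.37, limma adjusted p = 0.416). Without knockdown replicate 2 the values were −0.41 for Elf1 and −0.16 for Gabpa (limma adjusted p = 0.000215 and 0.0327). In RefSeq Gabpa overlaps Atp5j, Elf1 overlaps Wbp4 and Elk3 overlaps Cdk17. The overlap is between whole gene intervals. With no strand setting given, how reads in any shared stretch were divided between the genes is not known.

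Etv6 was the single member whose groups overlapped. It stood at 439, 391 and 421 in control cells, against 437, 263 and 444 after knockdown, with knockdown replicates 1 and 3 near the highest control and replicate 2 below them all. The log2 fold change was −0.17 with all libraries (95% interval −0.77 to 0.43, limma adjusted p = 0.673) and 0.08 without knockdown replicate 2 (limma adjusted p = 0.409), so its sign rests on that library.

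In 9 of the 10 members the value in knockdown replicate 2 was below both other knockdowns, which was so for 52.03% of tested genes with a known transcript length. The difference from the mean of knockdowns 1 and 3 on the log2 scale ran from −2.48 in Elk1 to −0.04 in Ets2, with a median of −1.11, against −0.12 over those genes. In this library short transcripts were higher and long ones lower. In 4 bins of transcript length with near-equal numbers of genes, the median difference was 0.81 (median 850.0 nt), 0.22 (1753.5 nt), −0.30 and −0.84 (4634.5 nt). Of the members, 0 lay in the bin of shortest transcripts, 5 in the second, 1 in the third and 4 in the longest. Ribosomal protein genes took 20.6% of the total of this library and 5.07 to 5.81% of the others. With a correction for transcript length, chosen after seeing the data, Erg and Ets2 were again the members called lower (log2 fold change −3.07 and −1.79, limma adjusted p = 0.0208 and 0.00201), beside 3.08% of tested genes (5.5% were called higher). With scaling to equal totals 1 member, Ets2, was called lower and 0 higher, beside 0.96% and 1.52% of genes. With library weights 8 members were called lower and 1 higher, beside 38% and 34.9% of genes, but the weights did not converge. The part of RNA quality or library preparation in the lower values of this library was not tested.

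**Figure D3:**
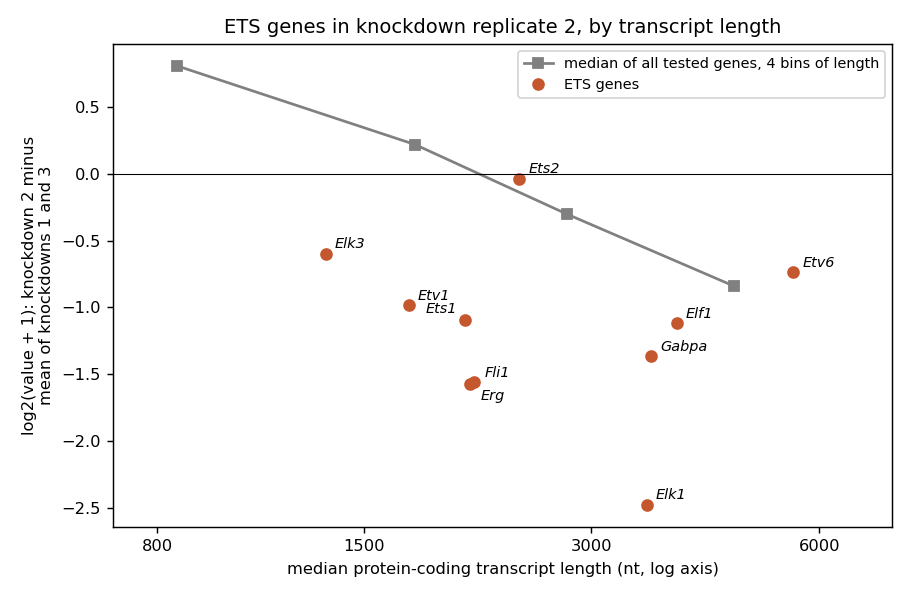
Difference on the log2(value + 1) scale between knockdown replicate 2 and the mean of knockdown replicates 1 and 3 (vertical axis) against median protein-coding transcript length in nt (log axis), for the 10 ETS genes (orange) and as medians of all tested genes in 4 bins of length (grey squares). Ets2 lies at −0.04 and the other 9 genes between −0.60 and −2.48.

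Without knockdown replicate 2 the order of the members was the same at its ends. In that fit 8 members were called lower and 1 higher, beside 26.1% and 23.8% of all tested genes, with log2 fold changes from −2.54 in Erg to 1.77 in Etv1, a median of −0.41, and −0.02 over all genes. Values of knockdown replicates 1 and 3 lay below all controls in 8 members and above them in 1, beside 35.5% and 32.2% of tested genes. Spread between replicates also differed by group. The coefficient of variation ran from 0.428% (Gabpa) to 12.5% (Etv1) in the controls, and from 5.72% (Ets2) to 65.6% (Elk1) in the knockdowns.

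Levels of different genes were compared per kilobase of median protein-coding transcript length. In the controls Elk3 was highest at 1336 ± 48.9 and Ets2 next at 801 ± 7.94 (SD, n = 3). Ets1 followed at 572, Gabpa at 323, Elf1 at 251, Elk1 at 243, Erg at 150.02, Fli1 at 89.4, Etv6 at 75.2 and Etv1 at 67.2. Elf1 and Elk1 overlapped in their control ranges (238 to 259 and 231 to 256), as did Etv6 and Etv1 (70.5 to 79.2 and 59.8 to 76.4). The order depended on the transcript taken. With the longest transcript of each gene Ets2 came first and Elk3 second, Ets1 moved from the third place to the sixth and Elk1 from the sixth to the third, while Erg stayed the seventh and Etv1 the last. In the knockdowns Erg was the lowest of the 10 by both lengths, at 20.3 per kilobase of median length. Etv1 was the fifth by median length, at 192, and the eighth by the longest transcript, at 50.2. These places come from means, and the libraries differed. By median length Etv1 stood at 226, 116 and 234 in knockdown replicates 1, 2 and 3, against 212, 219 and 237 for Ets2.

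The make-up of the family was described from the 25 family genes in the table, summed per kilobase. The sum was 5313, 5483 and 5303 for control cells but 3950.1, 2492 and 4283 after knockdown, so a share can be higher where the level is not. The 2 groups of relatives below were chosen after their genes' values were seen, so their shares describe that choice and add no support to it. Erg, Fli1, Ets1 and Ets2 together made up 31.0, 29.1 and 30.1% of this sum in the controls and 13.7, 15.02 and 14.5% in the knockdowns. Etv1, Etv4 and Etv5 made up 2.97, 2.80 and 2.53% and 11.4, 14.9 and 11.6%. Knockdown replicate 2 had the highest knockdown share in both groups of relatives, with Ets2 at 8.78% against 5.37 and 5.53% in knockdown replicates 1 and 3, and Etv4 at 3.73% against 1.40 and 1.38%. Elk3, whose mean level was 1.37-fold lower in the knockdowns without passing, held 24.6 to 25.4% in the controls and 25.7 to 29.1% in the knockdowns.

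**Figure D4:**
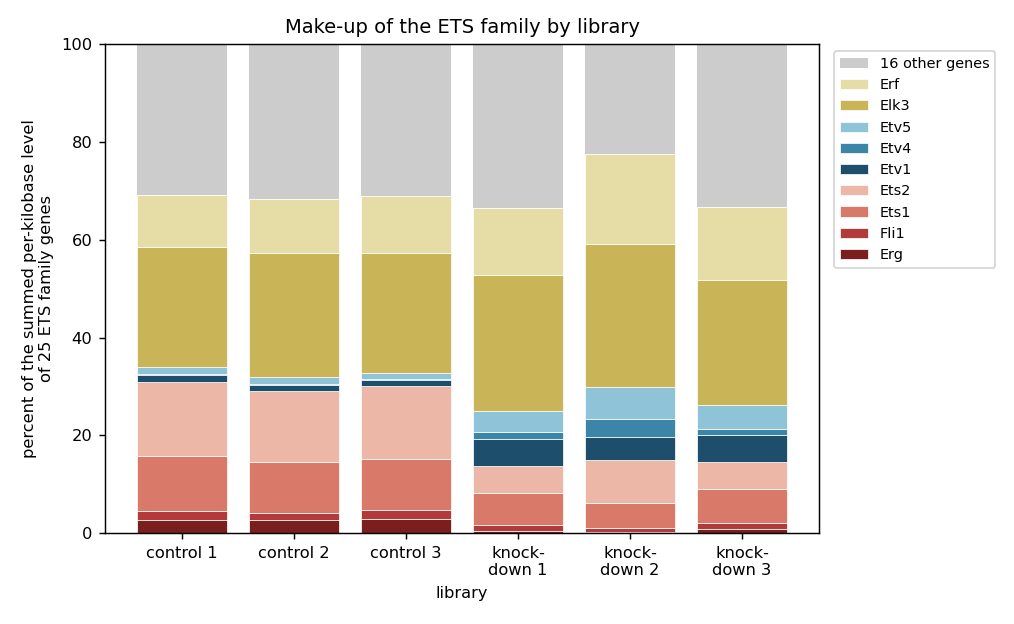
Share of each gene in the summed per-kilobase level of 25 ETS family genes (vertical axis, percent) in the 6 libraries, with Erg, Fli1, Ets1 and Ets2 in reds, Etv1, Etv4 and Etv5 in blues, Elk3 and Erf in yellows and 16 other genes in grey. The red part covers 29.1 to 31.0% in the controls and 13.7 to 15.02% in the knockdowns, and the blue part 2.53 to 2.97% and 11.4 to 14.9%.

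Of 17 other listed ETS genes 15 were in the table and 8 were tested, of which 2 rose (Etv4 and Etv5) and 0 fell, with a median log2 fold change of −0.59. Leaving out knockdown replicate 2 gave 2 higher and 2 lower (median −0.11). Of all tested genes, 3.2% were called higher and 1.78% lower with all libraries, and 23.8% and 26.1% without that library. Etv2, Fev and Spic were listed at 0 in every library. Among 22 tested partners and regulators of ETS proteins 1 fell and 0 rose (median −0.26), and without knockdown replicate 2 there were 10 lower and 1 higher (median −0.13). The gene that fell with all libraries was Runx1, a transcription factor that binds DNA together with Ets1, at 421, 363 and 371 in control cells, against 161, 93.5 and 181 after knockdown (log2 fold change −1.45, limma adjusted p = 0.0470, SE 0.28).

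Genes known as targets or contexts of the members were counted list by list, with no test between lists. Beside these counts stand the shares of all tested genes: 3.2% called higher and 1.78% lower, or 23.8% and 26.1% without knockdown replicate 2. Of 14 immediate early genes, where Elk proteins bind, 0 rose and 0 fell (median 0.09). The counts without knockdown replicate 2 were 2 higher and 1 lower (median 0.28). The most abundant, Cyr61 and Mcl1, had log2 fold changes of 0.77 and 0.16 (limma adjusted p = 0.384 and 0.582). Some of the list spread widely within a group, which limits what 0 calls can show. Cyr61 stood at 1592, 3708 and 3780 in control cells, against 3730, 3886 and 7590 after knockdown. Egr1 stood at 793, 1555 and 1589 and at 934, 804 and 3138. Of 18 mitochondrial genes tied to Gabpa, 0 passed in either direction (median 0.21), and without knockdown replicate 2 there were 2 higher and 2 lower (median −0.05). The most abundant were Atp5b, an ATP synthase subunit, and Cox4i1, a cytochrome oxidase subunit (log2 fold change 0.32 and 0.72, limma adjusted p = 0.462 and 0.519). Cox4i1 stood at 17588 in knockdown replicate 2 against 3486 and 3437 in the other knockdowns.

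Of 12 cartilage genes, from joint, matrix and growth plate (Col10a1, Ihh and Runx2 mark hypertrophic cartilage), 7 were tested, 4 fell and 0 rose (median −2.38). Fitted without knockdown replicate 2, there were 6 lower and 1 higher (median −2.14), beside 26.1% and 23.8% of all tested genes. The 1 higher was Tnc, at a log2 fold change of 0.31 (limma adjusted p = 0.000656), against −0.13 with all libraries (0.844). Acan, the cartilage proteoglycan aggrecan, went from 194 ± 9.92 to 5.39 ± 2.73 (SD, n = 3; log2 fold change of −5.01, limma adjusted p = 0.00535). Its knockdown values of 3.39, 8.50 and 4.26 rest on few reads, and in knockdown replicate 2 on fewer than 3. The size of its fall is therefore imprecise. Col2a1 and Col10a1, collagens of cartilage matrix and of hypertrophic cartilage, had log2 fold changes of −2.52 and −2.38, and Sox9, the regulator of cartilage fate, of −1.66 (limma adjusted p = 0.0159, 0.0174 and 0.0327). The joint lubricant gene Prg4 and the joint signal Gdf5 were too low to be tested. Of 12 tested protease, matrix and growth genes that Ets1 and Ets2 act on, 1 rose and 1 fell (median −0.01), and without knockdown replicate 2 there were 6 higher and 5 lower (median 0.11). Itgb3, the beta 3 integrin, stood at 1592, 1561 and 1473 in control cells, against 310.4, 417 and 373 after knockdown (log2 fold change −2.08, limma adjusted p = 0.00695). Ccnd1, cyclin D1, stood at 3132, 3375 and 3194 and at 7158, 8664 and 7514 (log2 fold change 1.26, limma adjusted p = 0.0139).

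Cells other than mesenchymal ones were checked by their markers, since Erg and Fli1 are also endothelial and blood genes. Of 17 endothelial markers 4 were tested and 4 were listed at 0 in every library, among them Tie1, Cldn5 and Robo4. Cdh5 was listed at 0 in the controls and stood at 0.565, 4.25 and 0 in the knockdowns, under 3 reads in each library. The summed level of the list was 928 to 1019.8 in the controls and 1913, 2411 and 1991 in the knockdowns, and 1 of the 4, the TGF-beta coreceptor gene Eng, rose (log2 fold change 0.88, limma adjusted p = 0.0377). All 4 had positive log2 fold changes, and all 4 were called higher without knockdown replicate 2: Flt1 at 1.62, Egfl7 at 1.43, Eng at 0.78 and Tek at 0.57 (limma adjusted p = 1.47e-06, 4.05e-05, 2.83e-06 and 0.00474). That fit called 23.8% of all tested genes higher and 26.1% lower. The part of endothelial cells in the members' values was not tested. Of 12 leukocyte markers 2 were tested and 0 passed, also without knockdown replicate 2, the most abundant being Cd68 and Coro1a (log2 fold change 0.02 and 1.23, limma adjusted p = 0.969 and 0.378). Ptprc was listed at 0 in all libraries but knockdown replicate 1, where it stood at 0.565. Leukocyte markers summed to 23.5 to 29.4 in the controls and to 34.5, 123 and 28.7 in the knockdowns. All 12 mesenchymal markers were tested and 0 passed with all libraries, while without knockdown replicate 2 there were 6 called higher and 4 lower. Fn1 and Col1a2, the most abundant, had log2 fold changes of −0.30 and −0.03 (limma adjusted p = 0.712 and 0.952), and of 0.24 and 0.28 without that library (limma adjusted p = 0.0879 and 0.00526), so both signs rest on it. Across the list the values without that library ran from −0.92 in Pdgfra and −0.91 in Vim to 1.24 in Ly6a (limma adjusted p = 1.78e-06, 3.53e-07 and 6.32e-08).

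Over the 6 libraries, the genes with the pattern most like that of Erg, by Pearson correlation of log2 values among 10098 other genes with a mean of at least 50 and no predicted or clone name, were Kank1, Pus10, Susd5, Clcn4-2 and Nav1. Their coefficients ran from 0.997 to 0.999. Every point shares the 2-group design and the depth of its library, so the coefficients describe these libraries alone. The size of the difference varied widely among the 5: Susd5 was 4.45-fold and Kank1 3.91-fold lower in the knockdowns, while Pus10 had a 1.28-fold lower mean (limma adjusted p = 0.246). Of the members, Ets1 was most like Erg (0.984) and Etv1 least (−0.715).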

How the data were processed

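RNA of 6 C3H10T1/2 libraries was isolated with Trizol and prepared by the Illumina TruSeq protocol, per the labels' protocols. Per the submitters' processing notes, the tools were RSEM 1.2.12 and Bowtie 1.0.0 and the build was mouse mm9. The sources used here give no annotation, filter or strand setting. The labels also carry a text on tumour formation, which does not describe these parental cells. The authors deposited a signal per gene and library, estimated read counts scaled by median normalization, a term taken from the deposited table's name, for 20325 genes, and a second table of 323 differential genes with the same signal and a fold ratio, with a test that the sources used here do not name. Division changes no ratio within a library, but leaves low genes of shallow libraries coarse: the value of 3 reads ranges between 0.777 (control replicate 1) and 12.8 (knockdown replicate 2). The value of 1 read was taken as the most frequent low value. Only 88.3 to 90.3% of the values up to 20 reads lay within 0.1 read of a whole multiple, so no count test was made.

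Genes with a mean of at least 10 were tested on log2(value + 1), which understates the change of low genes, with limma 3.58.1 in R 4.3.3 (knockdown against control, moderated with trend and robust settings, two-sided, Benjamini-Hochberg over all tested genes). The script was tested on simulated data whose spread was taken without knockdown replicate 2, so that test does not cover the effect of this library. Members' rows were read from that fit. Lists are described by counts and medians, with no test of their own. Lengths are medians over protein-coding transcripts of GENCODE M21, a newer build used for lengths alone. The members and lists were chosen with earlier results of these data known. Named are all members, up to 4 genes per other list that passed, by adjusted p, or else the 2 most abundant, the 5 genes most like Erg, and Ring1 and Rnf2; other genes were named after their values were seen. Each library was counted as a sample. Libraries of a group differed by more than sampling noise (chi-square on estimated reads, at least 1.51 per degree of freedom), which does not show that they come from separate cultures. The labels give no batch. Alternatives were pseudocounts of 0.5 and 5, a minimum mean of 50, no filter, total and upper-quartile scaling, no trend or robust options, library weights, a replicate block, leaving out each library and, added later, a length correction.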

Additional observations from a re-analysis of the deposited data

How the results depend on the processing

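Over 16 alternatives, the log2 fold change kept its sign in 157 of 160 values, and 9 of the 10 members never changed sign. The exceptions were all in Etv6 (−0.17 as reported): 0.080 without knockdown replicate 2 (other left-out libraries gave down to −0.29), 0.058 with library weights and 0.18 with the length correction. Scaling to equal totals shifted the all-gene median from 0.01 to −0.14 (log2). It called 184 genes higher and 116 lower, against 387 and 215 as reported, and 1 member lower, Ets2 (limma adjusted p = 0.0190), with Erg at −3.20 (0.0719). Library weights called 4214 genes higher and 4596 lower, with 1 member higher and 8 lower, but that estimate did not converge and put a weight of 211.7 on knockdown replicate 1 and of 0.0141 on knockdown replicate 2. The length correction called 599 higher and 336 lower. Leaving out 1 library gave 0 to 2855 genes higher and 0 to 3136 lower, and 0 to 1 members higher and 0 to 8 lower. Without any 1 of the 3 controls limma called 0 genes (1475 to 1529 at an unadjusted p under 0.05), and the adjusted p of Ets2 was 0.0602 to 0.0852 and of Erg 0.148 to 0.165. Without knockdown replicate 1 Ets2 was called (0.0489) and Erg was not (0.114). A fit with the replicate block called 0 genes higher and 0 lower (1866 at an unadjusted p under 0.05), 0 members higher and 0 lower, with Ets2 at an adjusted p of 0.1002 and Erg at 0.116. Same-numbered libraries deviated together at 0.170, −0.051 and −0.051 in the 3 pairs, and not every library correlated best with its own number, so the numbers were not taken as pairs. Depth limits Erg and Fli1 in knockdown replicate 2, at 4 and 8 reads.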
